A study of Talinum fruticosum with 36 samples.

Results

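Day 12 of drought was compared with day 9 at midday in leaves of *Talinum triangulare*, a species that can turn to crassulacean acid metabolism (CAM) when water is withheld. The comparison used every library that its label places on day 9 or day 12 at midday, 3 per day, so 6 of the 36 samples. Another 24 single-end libraries (days 0 and 4 of drought, re-watered plants, and the midnight samples of each stage) entered the model that estimated the spread between replicates and served for levels at other stages, and 6 paired-end libraries were not analysed here. All libraries came from mature leaves of plants that had been kept well watered for 28 days before water was withheld, and the labels give no genotype. Midday was 6 h into the light phase and midnight 6 h into the dark phase, and the re-watered plants had received water for 2 days. There were no watered plants sampled on days 9 or 12, so days without water, plant age and day of sampling cannot be told apart. The question put to these 6 libraries is how the daytime transcriptome went on changing once plants were already in the CAM mode.

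In CAM, stomata open at night, and phosphoenolpyruvate carboxylase fixes CO2 into malate that is kept in the vacuole. By day the malate leaves the vacuole and is decarboxylated behind closed stomata, and the phosphoenolpyruvate left over is returned to starch or sugars, which feed the next night's fixation. Phosphoenolpyruvate carboxylase is kept active at night by a dedicated kinase, and midday is the phase in which that kinase is normally low. Drought itself acts largely through abscisic acid, which closes stomata by opening anion channels of the SLAC family in guard cells.

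Reads had been assigned by the authors to the most similar Arabidopsis locus, so levels are given per Arabidopsis locus in CPM, counts scaled to library size, and closely related genes can share reads. The 6 libraries held 5712636 to 8110932 counts, so that 3 counts, taken as the detection floor, correspond to 0.403 to 0.564 CPM. Log CPM profiles correlated at r = 0.975 to 0.982 among the day 9 libraries, at 0.982 to 0.987 among the day 12 libraries and at 0.957 to 0.973 between the days, across loci. Leaf mesophyll markers were present in every library, and their sum (RBCS1A, RCA, LHCB3, GAPB and PRK) ranged from 48780 to 62452 CPM on day 9 and from 43943 to 48356 CPM on day 12.

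Of 14052 loci tested, 1181 (8.40%) differed between the days at an adjusted p under 0.05 in edgeR's quasi-likelihood test with Benjamini-Hochberg adjustment. The losses were more numerous and deeper than the gains. On day 12, 400 loci (2.85%) were higher, with a median log2 change of 0.70, and 781 (5.56%) were lower, with a median of -1.33. A change of at least 1 on the log2 scale was reached by 108 of the higher and 529 of the lower loci, while the median over all loci was 0.01. In 1132 of the 1181 called loci the 3 libraries of one day all lay above those of the other, against 33.0% of all loci tested. The test itself favours loci with separate days, so this separation is not independent support for the calls. The total was 537 without day 12 replicate 1, 739 without day 12 replicate 3 and 646 without day 9 replicate 2. The authors' means per assembled contig, in RPM, a level scaled to reads in the library, were made from the same libraries, so they are not independent. They went in the same direction for 688 of the 710 called loci (96.9%) that had contigs at 5 RPM or more. The other 471 called loci had no contigs at that level and could not be compared.

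**Figure D1:**
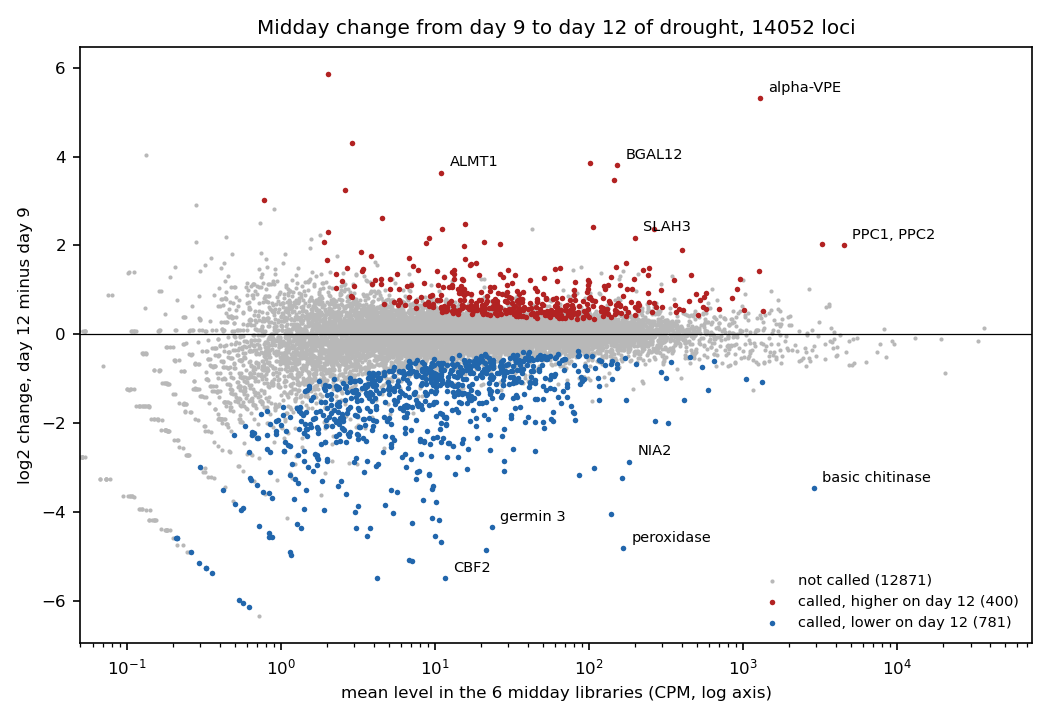
Each point is one of 14052 loci, with its mean level over the 6 midday libraries (CPM, log axis) and its log2 change from day 9 to day 12; coloured points passed an adjusted p of 0.05. The 781 lower loci reach far below -2, whereas few of the 400 higher ones exceed 2, among them PPC1, PPC2, SLAH3, ALMT1 and alpha-VPE.

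Phosphoenolpyruvate carboxylase and its kinase rose. On the list of the C4-acid and CAM carbon cycle, 39 loci were tested, 6 rose and 3 fell, beside the 2.85% and 5.56% of all loci given above, and the median change was 0.02 (0.01 to 0.07 when a library was left out) beside 0.01 over all loci. The higher calls were 3 without day 9 replicate 2 or day 12 replicate 1. The lower calls were 1 without day 12 replicate 1 or 3, 6 with DESeq2 and 5 in a fit to the 6 midday libraries alone. The PPC1 locus, a plant-type phosphoenolpyruvate carboxylase, had 1680, 1930 and 1805 CPM in the day 9 libraries and 8158, 6094 and 7518 CPM in the day 12 libraries. Every day 12 library lay far above every day 9 library. The log2 change was 2.01 ± 0.31 (SE), or 4.02-fold, with an edgeR adjusted p of 0.000108. PPC2, the close paralog that can share its reads, had 1155, 1410 and 1295 CPM on day 9 and 5869, 4387 and 5455 CPM on day 12, a log2 change of 2.02 ± 0.28 (edgeR adjusted p = 2.83e-05). The days were as clearly apart as for PPC1.

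This midday rise had no counterpart at midnight, when both loci were already high. PPC1 averaged 14247 CPM at midnight of day 9 and 13675 CPM at midnight of day 12, a log2 change of -0.06 that did not pass the test (edgeR adjusted p = 0.932). The difference between the midday and the midnight change was itself called, at 2.07 ± 0.42 for PPC1 (edgeR adjusted p = 0.00693) and 2.1 ± 0.38 for PPC2 (edgeR adjusted p = 0.00372). At midday, PPC1 averaged 414 CPM on day 0, 478 CPM on day 4 and 461 CPM in re-watered plants, so the day 12 level was the highest of the 5 midday stages.

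The authors' deposited table of RPM means gives levels for the assembled contigs matched to these loci. The contig that carried most of the midnight signal of PPC1, Tt63271, had means of 65.7 RPM on day 9 and 63.3 RPM on day 12 at midday, against 7638 and 6462 RPM at midnight, in the authors' deposited table. In that table the contig Tt9871_6, also matched to PPC1, went from 47.3 to 335 RPM at midday, and Tt9871_8, matched to PPC2, went from 492 to 856 RPM. All 20 contigs matched to either gene summed to 677 RPM on day 9 and 1371 RPM on day 12 in the authors' deposited table, a ratio of 2.03. Both loci together went from 3092 ± 252 to 12494 ± 1822 CPM (SD, n = 3). The sums rose under both ways of assigning reads, but by different sizes, and Tt63271 did not rise at midday. The contig sum lay far below the locus sum on both days, so the contigs do not show where most of these reads lie. The contig table gives no spread between replicates.

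The kinase genes moved the same way. PPCK1, a phosphoenolpyruvate carboxylase kinase, had 84.9, 56.8 and 54 CPM on day 9 and 156, 116 and 123 CPM on day 12. The lowest day 12 library lay above the highest day 9 library, and the log2 change was 1.01 ± 0.22 (edgeR adjusted p = 0.00373). PPCK2, a paralog whose contig is at 0 RPM in the authors' deposited table, rose by 1.06 ± 0.25 (edgeR adjusted p = 0.00744), a call lost without day 12 replicate 1 (0.88) or day 9 replicate 2 (0.95). Midnight means of PPCK1 stayed above its midday levels on both days, at 312 and 366 CPM. BCA5, a carbonic anhydrase, had 63.9, 52.1 and 52.3 CPM on day 9 and 98.5, 88.9 and 76.6 CPM on day 12, a log2 change of 0.65 ± 0.17 (edgeR adjusted p = 0.0127), and its call was lost without day 12 replicate 1 (0.56) or without day 9 replicate 2 or 3 (0.60 each).

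tDT, the tonoplast dicarboxylate transporter that moves malate across the vacuolar membrane, appeared late. It had 0.689, 0 and 0.16 CPM on day 9 and 9.21, 1.36 and 6.04 CPM on day 12, that is 5 counts against 96 summed over the 3 libraries. Day 9 replicates 2 and 3 lie under the detection floor, and the day 12 libraries spread widely. The log2 change of 4.3 ± 1.01 passed the test (edgeR adjusted p = 0.013) but not without day 12 replicate 1 (3.74), day 9 replicate 2 (3.65) or day 9 replicate 3 (4.07). At midnight, in other libraries, its mean went from 0.373 to 9.35 CPM (log2 change 4.59, edgeR adjusted p = 0.00417), and no midday library of day 0, day 4 or the re-watered plants held a read of it.

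The 3 members of the carbon cycle list that fell changed less than the risers other than BCA5. AlaAT1, an alanine aminotransferase, had 74.6, 74.8 and 64.4 CPM on day 9 and 46.5, 49.4 and 52.6 CPM on day 12 (log2 change -0.53 ± 0.11, edgeR adjusted p = 0.00232). The peroxisomal malate dehydrogenase pMDH2 fell by 0.74 ± 0.21 (edgeR adjusted p = 0.0295) and the plastid phosphoenolpyruvate/phosphate translocator PPT2 by 0.57 ± 0.17 (edgeR adjusted p = 0.0417). The pMDH2 call was lost without day 9 replicate 2 (-0.73) or 3 (-0.62) or without day 12 replicate 1 (-0.65) or 3 (-0.55). The PPT2 call was lost without day 9 replicate 1 (-0.59) or 3 (-0.43), and without day 12 replicate 1 (-0.51), 2 (-0.61) or 3 (-0.58).

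Of the decarboxylating enzymes, which work by day, those named here did not pass the test across all 30 libraries. NADP-ME4, a plastid NADP-malic enzyme, had 641, 662 and 668 CPM on day 9 and 886, 873 and 801 CPM on day 12, so the days did not overlap, but the log2 change of 0.38 ± 0.16 had an edgeR adjusted p of 0.162. NADP-ME2 came nearest, with a log2 change of 0.53 ± 0.17 (edgeR adjusted p = 0.0511), and was called by DESeq2 (adjusted p = 0.0483), by limma (adjusted p = 0.0476) and in the edgeR fit to the 6 midday libraries alone (adjusted p = 0.0188). NADP-ME1, not called across all 30 libraries, was called higher in that fit to the 6 libraries (0.42, edgeR adjusted p = 0.0358). NAD-ME1, a mitochondrial NAD-malic enzyme, was at 0.16 ± 0.12 (edgeR adjusted p = 0.452). PPDK, which regenerates phosphoenolpyruvate from pyruvate, had 1899, 2605 and 3789 CPM on day 9 and 4374, 5474 and 3479 CPM on day 12, with overlapping days (log2 change 0.68 ± 0.36, edgeR adjusted p = 0.27). PCK1, a phosphoenolpyruvate carboxykinase, stood at 9.47, 6.71 and 9.78 CPM on day 9 and 6.77, 5.72 and 9.22 CPM on day 12. The carbonic anhydrase BCA1 had 24797, 24782 and 30027 CPM on day 9 and 14472, 15511 and 13624 CPM on day 12, without overlap, and a log2 change of -0.87 ± 0.40 that was not called (edgeR adjusted p = 0.196) except in the edgeR fit to the 6 midday libraries alone (-0.90, adjusted p = 0.00657). None of the 15 tested subunits of the vacuolar proton pumps was called, beside 8.40% of all loci called in either direction. Single subunits were called lower under other settings, VHA-G2 by limma and without day 9 replicate 3, and VHA-G1 in the fit to the 6 libraries.

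**Figure D2:**
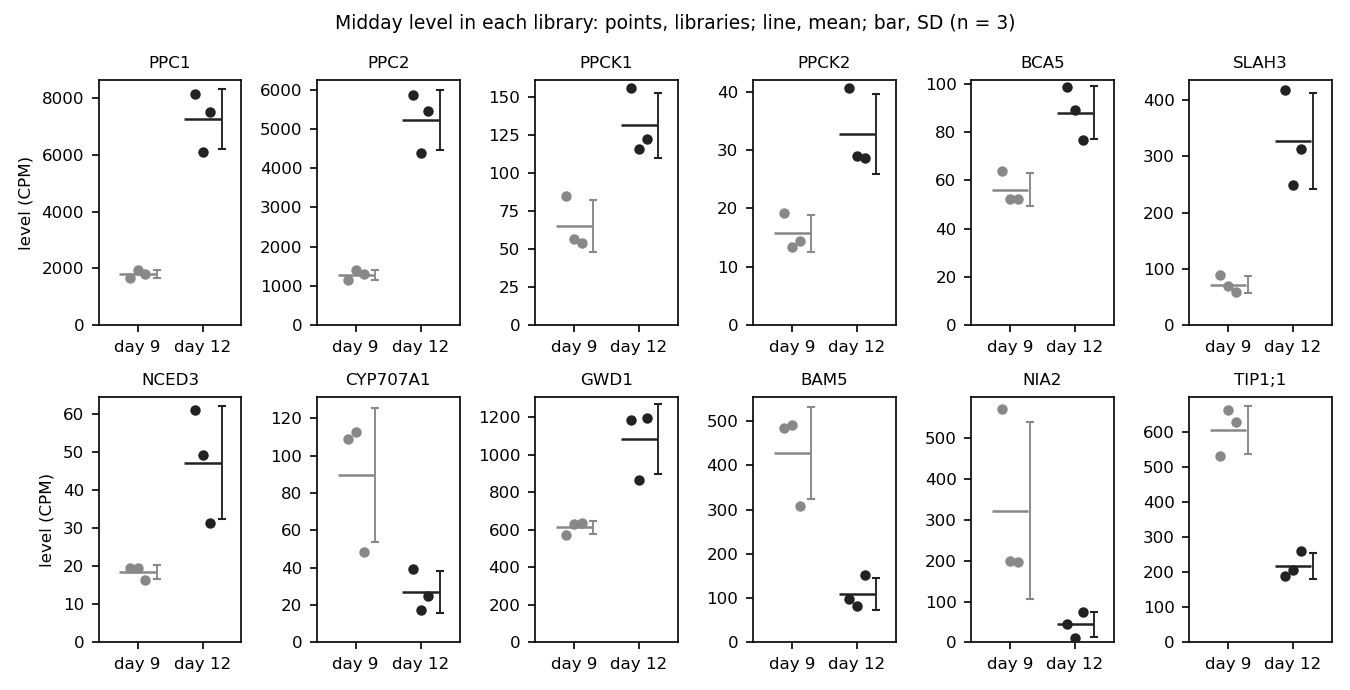
Level in CPM of 12 loci in each of the 6 midday libraries; points are libraries, the horizontal line is the mean and the bar the SD (n = 3 per day). PPC1 and PPC2 are tightly grouped on day 9 and clearly higher on day 12, while NIA2 and CYP707A1 are widely spread on day 9 and low on day 12.

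Anion channel genes were among the strongest gains. Of 5 tested loci annotated as SLAC1 or its homologues, 4 rose, beside 2.85% of all loci, with a median change of 2.06; this family, like the others below that are not named as a list, was picked out after its values were seen. SLAH3, a plasma membrane channel for nitrate and chloride in Arabidopsis, had 88.4, 69.9 and 58 CPM on day 9 and 417, 249 and 313 CPM on day 12. The lowest day 12 value was well above the highest day 9 value. SLAH3 rose by 2.18 ± 0.29 on the log2 scale (edgeR adjusted p = 2.76e-05). The SLAH2 locus, AT4G27970, rose by 2.37 ± 0.34 (edgeR adjusted p = 6.9e-05) and the SLAH1 locus, AT1G62280, by 2.06 ± 0.39 (edgeR adjusted p = 0.00101). SLAH2 has no contig of its own, and reads of one Talinum transcript can be split over these loci, whereas SLAH3 contigs summed to 209 RPM on day 9 and 1140 RPM on day 12 in the authors' deposited table.

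SLAC1 itself, the guard cell channel that closes stomata, was called at a lower size. It had 9.3, 4.83 and 8.98 CPM on day 9 and 16.9, 10.5 and 14.8 CPM on day 12 (log2 change 0.88 ± 0.25, edgeR adjusted p = 0.0237), but its contigs went from 5.33 to 3.33 RPM in the authors' deposited table, and the call was lost without day 9 replicate 2 (0.62) or without day 12 replicate 1 (0.73) or 3 (0.84). SLAH3 at midnight averaged 56.3 CPM on day 9 and 55.7 CPM on day 12, and its midday and midnight changes differed by 2.19 ± 0.40 (edgeR adjusted p = 0.00466). The 9 guard cell markers summed to 121 to 156 CPM on day 9 and 309 to 484 CPM on day 12. Without SLAH3 the other 8 summed to 53.3 to 67.9 CPM on day 9 and 60.4 to 67.7 CPM on day 12. Of the 9 markers tested, SLAH3 and SLAC1 rose, beside 2.85% of all loci, and both were already counted in the SLAC1 family above. FAMA, a guard cell transcription factor, fell (-0.98 ± 0.29, edgeR adjusted p = 0.0335), beside 5.56% of all loci lower. The FAMA call was lost without day 9 replicate 1 (-0.90) or 3 (-0.91) and without day 12 replicate 1 (-1.1), 2 (-0.81) or 3 (-1.04). In these whole-leaf samples, fewer cells of a type and less RNA per cell cannot be told apart.

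ALMT1 (AT1G08430), named for an Arabidopsis root channel that releases malate, had 2.07, 1.07 and 1.76 CPM on day 9 and 28.4, 10.2 and 22.4 CPM on day 12. All day 12 libraries were several-fold above the day 9 libraries, and the log2 change was 3.64 ± 0.39 (edgeR adjusted p = 1.23e-06). At midnight its means were 0 CPM on day 9 and 0.136 CPM on day 12, under the floor. The vacuolar malate channel loci on the carbon cycle list were nearly level, with log2 changes of 0.19 ± 0.19 for ALMT4, 0.02 ± 0.17 for ALMT6 and -0.08 ± 0.30 for ALMT9, none of them called (edgeR adjusted p = 0.59, 0.96 and 0.913).

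The largest gain among called loci above 10 CPM was in a vacuolar protease. Alpha-VPE (AT2G25940), a vacuolar processing enzyme that matures or degrades vacuolar proteins, had 19.8, 52.7 and 117 CPM on day 9 and 2317, 4073 and 1160 CPM on day 12. Replicates spread widely within each day, yet the days did not overlap. The log2 change was 5.31 ± 1.15 (edgeR adjusted p = 0.00456). Day 9 had the lowest mean of the midday stages, the other means being 583 CPM on day 0, 104 CPM on day 4 and 583 CPM after re-watering, and the 3 day 0 libraries ranged from 37.1 to 1530 CPM. At midnight it averaged 925 CPM on day 9 and 943 CPM on day 12. Beta-VPE (AT1G62710) rose by 3.47 ± 0.85 at the locus level (edgeR adjusted p = 0.0115), but its own contigs went from 25.7 to 21.7 RPM in the authors' deposited table while alpha-VPE contigs went from 67 to 3660 RPM there. The beta-VPE call was lost without day 9 replicate 2 (3.53) or 3 (3.31).

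Some cell wall galactosidases rose at midday and at midnight. Of 12 beta-galactosidase loci tested, 3 rose at midday and 7 at midnight, beside 2.85% and 3.57% of all loci, and none fell at either time. BGAL12 (AT4G26140), an enzyme that removes galactose from wall polysaccharides, had 10.3, 16 and 34.8 CPM on day 9 and 476, 58.2 and 323 CPM on day 12. Day 12 replicate 2 stood far below the other day 12 libraries but still above day 9. It rose by 3.82 ± 0.62 on the log2 scale (edgeR adjusted p = 0.000318), with a midnight change of 2.39 (edgeR adjusted p = 0.0115). BGAL2 (AT3G52840) and BGAL1 (AT3G13750) rose by 3.87 ± 0.62 and 2.42 ± 0.42 (edgeR adjusted p = 0.000305 and 0.000593) with the same library pattern, and shared reads cannot be told apart from separate genes, since BGAL1 contigs went from 11 to 6.67 RPM in the authors' deposited table. Other large gains were the pectin acetyl esterase AT5G23870 (2.49 ± 0.33, edgeR adjusted p = 1.82e-05), the P450 AT5G08250 (2.37 ± 0.37, edgeR adjusted p = 0.00017) and the RING protein AT5G01880 (2.17 ± 0.26, edgeR adjusted p = 5.59e-06).

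Starch genes moved in both directions. Of 15 starch synthesis loci tested, 2 rose, and of 24 starch degradation loci, 2 rose and 3 fell, beside 2.85% of all loci higher and 5.56% lower, with medians of 0.23 and 0.30. The synthesis calls were 1 under RLE scaling, in the fit to the 6 midday libraries and without any 1 of day 9 replicates 1 and 2 and day 12 replicates 1 and 2. The degradation calls were 0 higher without day 9 replicate 1 or 3 or day 12 replicate 1 or 3, and 1 lower without day 12 replicate 1 or 2. SS1, the starch synthase that extends short glucan chains, had 64.9, 101 and 92 CPM on day 9 and 248, 285 and 254 CPM on day 12. The days lay well apart, and the log2 change was 1.61 ± 0.31 (edgeR adjusted p = 0.00135). At midnight SS1 fell, from a mean of 167 to 80.4 CPM (log2 change -1.05, edgeR adjusted p = 0.0326), and the 2 changes differed by 2.67 ± 0.43 (edgeR adjusted p = 0.00193). SS4, which starts granules, rose by 0.42 ± 0.12 (edgeR adjusted p = 0.0309), a call lost without day 9 replicate 1 (0.36) or 2 (0.39) or day 12 replicate 1 (0.35) or 2 (0.44), and under the RLE scaling of edgeR.

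On the breakdown side, GWD1, the dikinase that phosphorylates starch so that amylases can reach it, had 573, 630 and 636 CPM on day 9 and 1187, 867 and 1197 CPM on day 12. The day 9 libraries were close together and below all day 12 libraries, and the log2 change was 0.82 ± 0.25 (edgeR adjusted p = 0.0349). Its call was lost without each library other than day 12 replicate 2, at 0.78, 0.84 and 0.85 without day 9 replicates 1, 2 and 3 and at 0.75 and 0.74 without day 12 replicates 1 and 3. LSF1, a glucan phosphatase homologue, rose by 0.78 ± 0.23 (edgeR adjusted p = 0.0294) with overlapping days, and lost its call without day 9 replicate 1 (0.65) or 3 (0.66) or day 12 replicate 1 (0.80) or 3 (0.58). DPE1, a plastid disproportionating enzyme, was not called at midday (0.31 ± 0.14, edgeR adjusted p = 0.201) but fell at midnight (-1.41, edgeR adjusted p = 2.36e-06), a difference of 1.71 ± 0.21 (edgeR adjusted p = 6.83e-05).

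The beta-amylases BAM5, BAM6 and BAM2 fell. BAM5, which lies outside the plastid in Arabidopsis, had 484, 490 and 308 CPM on day 9 and 97.4, 82 and 151 CPM on day 12. Day 9 was the peak of its midday course, with means of 24.8 CPM on day 0, 31.1 CPM on day 4 and 139 CPM after re-watering. The log2 change was -1.96 ± 0.54 (edgeR adjusted p = 0.0248), and BAM5 contigs went from 1004 to 274 RPM in the authors' deposited table. The BAM6 locus, with no contig of its own, followed at -1.99 ± 0.51 (edgeR adjusted p = 0.0156) and BAM2 at -1.27 ± 0.20 (edgeR adjusted p = 0.000115), although BAM2 contigs went from 9.67 to 11.3 RPM in the authors' deposited table. BAM5 lost its call without day 9 replicate 1 (-1.86) or 2 (-1.85) or day 12 replicate 1 (-1.87) or 2 (-1.78), and BAM6 without day 12 replicate 1 (-1.91) or 2 (-1.84).

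Of 15 loci for abscisic acid synthesis and turnover, 2 of synthesis rose and 2 of turnover fell, beside 2.85% of all loci higher and 5.56% lower. The higher calls were 0 without day 9 replicate 2 or 3 or day 12 replicate 1, 1 without day 9 replicate 1 or day 12 replicate 2, and 4 in the fit to the 6 midday libraries, which called 1 of turnover lower. NCED3, the dioxygenase of the rate-limiting step of drought-induced synthesis, had 19.6, 19.6 and 16.4 CPM on day 9 and 60.9, 49.3 and 31.5 CPM on day 12. All day 12 libraries were above day 9, and the log2 change was 1.35 ± 0.37 (edgeR adjusted p = 0.0234). NCED9 rose by 1.59 ± 0.42 (edgeR adjusted p = 0.0196). CYP707A1, a hydroxylase that inactivates abscisic acid, had 109, 112 and 48.6 CPM on day 9 and 39.1, 17.2 and 24.9 CPM on day 12, without overlap (log2 change -1.74 ± 0.29, edgeR adjusted p = 0.000343), and CYP707A2 changed by -1.88 ± 0.41 (edgeR adjusted p = 0.00382).

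The NCED3 call was lost without each library other than day 12 replicate 3, at 1.39, 1.39 and 1.26 without day 9 replicates 1, 2 and 3 and at 1.12 and 1.31 without day 12 replicates 1 and 2, and the NCED9 call without day 9 replicate 2 (1.71) or 3 (1.37) or day 12 replicate 1 (1.36). CYP707A1 did not change at midnight by the test (0.19, edgeR adjusted p = 0.73), and its midday and midnight changes differed by -1.93 ± 0.41 (edgeR adjusted p = 0.00891), a difference not called in a fit to the compared groups alone (-1.95).

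In the signalling list, 4 of 17 loci rose, beside 2.85% of all loci, and 1 fell, a share near the 5.56% of all loci that were lower. The higher call was 1 without day 9 replicate 2 or 3 or day 12 replicate 1. The risers were phosphatases that restrain the signal and are themselves induced by it, with HAI2 at 1.19 ± 0.26, HAI1 at 1.27 ± 0.32 and PP2CA at 0.87 ± 0.24 (edgeR adjusted p = 0.00373, 0.0117 and 0.0226), and the transcription factor ABF2 (0.80 ± 0.25, edgeR adjusted p = 0.0439), which the rule for named loci does not select. HAI2 had 74.4, 55.6 and 53.7 CPM on day 9 and 188, 124 and 106 CPM on day 12. The receptor PYR1 fell (-1.21 ± 0.29, edgeR adjusted p = 0.00797). HAI1 lost its call without day 9 replicate 2 (1.16) or 3 (1.1) or day 12 replicate 1 (0.94), PP2CA without day 9 replicate 2 (0.84) or 3 (0.83) or day 12 replicate 1 (0.66), and PYR1 without day 9 replicate 2 (-1.01) or day 12 replicate 1 (-1.08). ABF2 lost its call without each library other than day 9 replicate 1, at 0.74 and 0.71 without day 9 replicates 2 and 3 and at 0.86, 0.71 and 0.83 without day 12 replicates 1, 2 and 3, and under RLE (0.76) or upper quartile scaling (0.77).

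Of 8 drought markers and dehydrins tested, 3 rose and none fell, beside 2.85% and 5.56% of all loci, and 1 rose without day 9 replicate 2. COR47, a dehydrin, had 32, 26.6 and 16 CPM on day 9 and 63, 45.2 and 65 CPM on day 12 (log2 change 1.22 ± 0.28, edgeR adjusted p = 0.00554). ATHB7, a homeodomain factor induced by drought, rose by 1.11 ± 0.26 (edgeR adjusted p = 0.00817), except without day 9 replicate 2, when 1.04 was not called. The low dehydrin XERO1 rose by 1.37 ± 0.41 (edgeR adjusted p = 0.0412) and lost its call without each library other than day 9 replicate 1, at 1.56 and 0.97 without day 9 replicates 2 and 3 and at 1.34, 1.5 and 1.24 without day 12 replicates 1, 2 and 3. P5CS1, the entry enzyme of proline synthesis, was already high, at 1818, 1290 and 1150 CPM on day 9 and 2168, 2015 and 1986 CPM on day 12, and its change of 0.54 ± 0.20 was not called (edgeR adjusted p = 0.103) except without day 9 replicate 1 (0.75). P5CDH, which oxidises proline breakdown products, rose by 0.72 ± 0.21 (edgeR adjusted p = 0.0309), with overlapping days and with the call lost without day 9 replicate 2 (0.62) or 3 (0.69) or day 12 replicate 1 (0.61) or 3 (0.55). An SNF1-related kinase regulatory subunit, AT3G48530, chosen after its values were seen, had 8.78, 11.1 and 11.4 CPM on day 9 and 49.5, 24.6 and 54 CPM on day 12 (log2 change 2.02 ± 0.40, edgeR adjusted p = 0.00198).

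**Figure D3:**
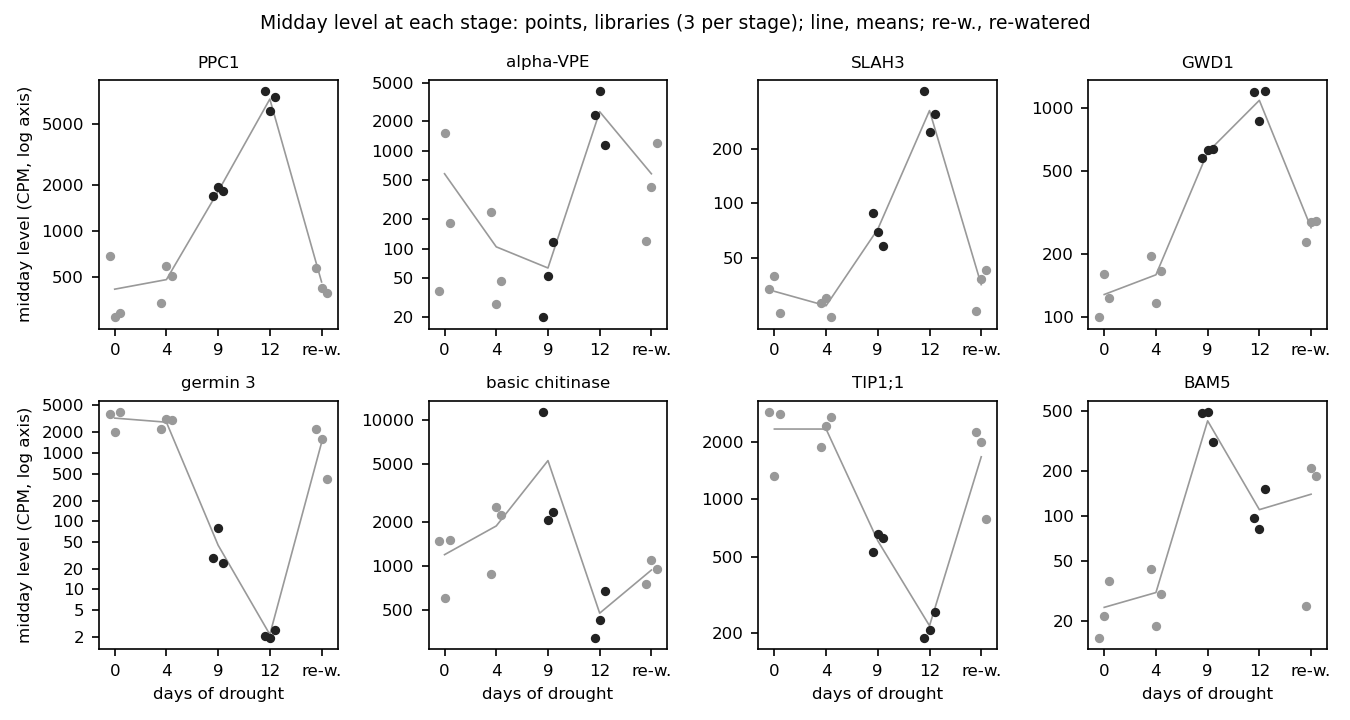
Midday level (CPM, log axis) of 8 loci on days 0, 4, 9 and 12 of drought and after re-watering; points are libraries (3 per stage, day 9 and day 12 in black) and the line joins the means. PPC1, SLAH3 and GWD1 are highest on day 12, germin 3 and TIP1;1 are lowest on day 12, BAM5 peaks on day 9, and alpha-VPE has its lowest mean on day 9. The basic chitinase has its highest mean on day 9 through replicate 1 (11365 CPM). Its other day 9 libraries, at 2079 and 2360 CPM, lie within the day 4 range of 886 to 2534 CPM.

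Single loci for chlorophyll and amino acid breakdown rose. PPH, the pheophytinase that removes the phytol tail during chlorophyll breakdown, had 116, 113 and 124 CPM on day 9 and 264, 309 and 257 CPM on day 12. Replicates were tight and the days did not overlap (log2 change 1.23 ± 0.25, edgeR adjusted p = 0.00179). PPH was the only called locus of 14 on the senescence list, beside 2.85% of all loci higher. The median change of that list was 0.03, with 7 positive and 7 negative members. On it the fit to the 6 midday libraries called 3 higher, and DESeq2 and limma each called 1 lower. On the list of autophagy and branched-chain amino acid breakdown, 2 of 11 tested loci rose and none fell, beside 2.85% and 5.56% of all loci. MCCA, a subunit of the mitochondrial carboxylase that degrades leucine, rose at midday (1.22 ± 0.21, edgeR adjusted p = 0.000397) and at midnight (1.07, edgeR adjusted p = 0.00233). IVD, an earlier enzyme of the same route, had 217, 200 and 216 CPM on day 9 and 311, 288 and 304 CPM on day 12 (log2 change 0.51 ± 0.11, edgeR adjusted p = 0.00441).

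Most photosynthesis genes did not pass the test. Of 39 photosystem and light-harvesting loci, 36 had a negative change and the median was -0.49. Only PSAN, a photosystem I subunit, was called (log2 change -1.07 ± 0.34, edgeR adjusted p = 0.0455), beside 5.56% of all loci lower. A fit to the 6 midday libraries alone called 18 of these 39 loci lower and DESeq2 called 5. PSAN lost its call without each library other than day 12 replicate 2, at -1.12, -1.24 and -0.84 without day 9 replicates 1, 2 and 3 and at -1.01 and -0.97 without day 12 replicates 1 and 3. No locus was called among 18 of the Calvin-Benson cycle, 13 of photorespiration, 18 of chlorophyll synthesis, 20 of glycolysis, 18 of sucrose metabolism and sugar transport, 10 of phosphate starvation or 5 early light-induced proteins. Over all loci, 8.40% were called in either direction. The fit to the 6 libraries alone called 8 of chlorophyll synthesis lower, 1 each of the Calvin-Benson cycle, glycolysis and sucrose metabolism lower, and 2 each of glycolysis, phosphate starvation and the early light-induced proteins higher. DESeq2 called 2 of chlorophyll synthesis and 1 of sucrose metabolism lower. Of 27 clock loci, 2 rose and none fell, beside 2.85% of all loci higher. Those that rose were CDF3 (0.70 ± 0.17, edgeR adjusted p = 0.0103) and RVE6 (0.45 ± 0.13, edgeR adjusted p = 0.0302). CDF3 was not called without day 9 replicate 2 (0.56). RVE6 was not called under RLE or upper quartile scaling, nor without day 9 replicate 1 (0.47), 2 (0.40) or 3 (0.47) or day 12 replicate 1 (0.35) or 2 (0.45). LHY, a core clock gene, had 152, 116 and 117 CPM on day 9 and 124, 148 and 100 CPM on day 12.

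Nitrate reductase transcripts fell. NIA2, a nitrate reductase, had 572, 198 and 197 CPM on day 9 and 45.9, 11.8 and 74.7 CPM on day 12. Day 9 replicate 1 stood far above the other day 9 libraries, but all of them lay above day 12. NIA2 changed by -2.87 ± 0.73 on the log2 scale (edgeR adjusted p = 0.0145), and NIA2 contigs went from 474 to 69.7 RPM in the authors' deposited table. NIA1, whose contigs are at or near 0 RPM there, fell by 3.01 ± 0.72 (edgeR adjusted p = 0.0102), and both were the only called loci of 15 for nitrogen assimilation, beside 5.56% of all loci lower. Calls were lost without day 9 replicate 1 (-2.17 for NIA2, -2.25 for NIA1) and without day 12 replicate 1 (-2.90 and -3.05) or 2 (-2.42 and -2.55), and neither was called in a fit to the 6 midday libraries alone. On days 0 and 4 NIA2 averaged 810 and 832 CPM.

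Of 13 aquaporin loci, the water channels of plasma membrane and tonoplast, 5 fell, beside 5.56% of all loci. SIP1;1, which resides in the endoplasmic reticulum in Arabidopsis, was the only one called higher (0.78 ± 0.16, edgeR adjusted p = 0.00258), beside 2.85% of all loci. The tonoplast channel TIP1;1 had 531, 662 and 628 CPM on day 9 and 189, 207 and 259 CPM on day 12. All day 12 libraries lay far below day 9, and the log2 change was -1.47 ± 0.34 (edgeR adjusted p = 0.00637). The plasma membrane channel PIP2;2 fell by 1.16 ± 0.25 (edgeR adjusted p = 0.00326), and TIP1;3, a paralog of TIP1;1 that can share its reads, by 2.1 ± 0.42 (edgeR adjusted p = 0.0024). At midnight TIP1;1, PIP2;2 and TIP1;3 had positive estimates that were not called, and the midday and midnight changes differed for TIP1;1 (-2.1 ± 0.48, edgeR adjusted p = 0.0155), PIP2;2 (-1.67 ± 0.35, edgeR adjusted p = 0.00778) and TIP1;3 (-2.63 ± 0.61, edgeR adjusted p = 0.0187). The TIP1;1 difference was not called without day 12 midday replicate 1 (-2.0) or day 12 midnight replicate 1 (-1.82), and that of TIP1;3 without day 12 midday replicate 1 (-2.53) or replicate 3 of day 9 or day 12 at midnight (-2.62 and -2.38).

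Many loci for building and loosening the cell wall fell. Beside 5.56% of all loci lower, all 6 tested COBRA-like loci fell (median -2.76), as did 6 of 15 xyloglucan endotransglucosylases (median -2.43), 12 of 23 cellulose synthases and cellulose synthase-like loci (median -1.14), 4 of 5 UDP-D-glucuronate 4-epimerases (median -1.53), 8 of 18 arabinogalactan and fasciclin-like loci (median -1.13), 6 of 12 proline-rich extensin-like loci (median -3.36), 9 of 27 pectin methylesterases and their inhibitors (median -1.0) and 3 of 10 expansins (median -1.62). None of the loci in these groups was called higher. In the fit to the 6 midday libraries alone, 2 COBRA-like loci, 2 xyloglucan endotransglucosylases, 2 extensin-like loci and 5 pectin methylesterases and inhibitors were called lower. Without day 9 replicate 2 the calls were 3 extensin-like, 4 arabinogalactan and 2 pectin methylesterase loci, and without day 12 replicate 1 they were 3, 4 and 3. Without day 12 replicate 2 they were 5 arabinogalactan and 5 pectin methylesterase loci, and without day 12 replicate 3, 4 of the pectin methylesterases. The expansin median was -0.73 without day 9 replicate 2. Of 10 vascular markers, the lignin and secondary wall genes LAC4, IRX1 and IRX5 fell, while the list summed to 694 to 841 CPM on day 9 and 771 to 888 CPM on day 12, with PP2-A1 at 2 counts; its part in the wall gene result was not tested. Without day 12 replicate 1, 1 of the vascular markers was called lower. IRX1 lost its call without day 12 replicate 1 (-0.66), and IRX5 without day 9 replicate 2 (-0.48) or 3 (-0.48) or day 12 replicate 1 (-0.47) or 3 (-0.51).

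Among the wall enzymes, AT3G23820, a 4-epimerase that makes galacturonate units for pectin, had 61, 72.6 and 51.6 CPM on day 9 and 13.2, 16.4 and 17.2 CPM on day 12. The days lay far apart, and the log2 change was -1.98 ± 0.18 (edgeR adjusted p = 6.99e-08). CSLA2 (AT5G22740), a glucomannan synthase, had 16.7, 26.4 and 23.7 CPM on day 9 and 3.2, 3.77 and 4.61 CPM on day 12, after means of 355 CPM on day 0 and 330 CPM on day 4 (log2 change -2.52 ± 0.29, edgeR adjusted p = 2.75e-06). CESA5 (AT5G09870), a subunit of the primary wall cellulose synthase, fell less, by 0.76 ± 0.15 (edgeR adjusted p = 0.00137). XTH17 (AT1G65310), which cuts and rejoins xyloglucan, had 36.2, 18.8 and 5.77 CPM on day 9 and 0.376, 1.36 and 1.43 CPM on day 12, and COBL8 (AT3G16860) had 25.1, 15.3 and 0.802 CPM on day 9 and 0.188, 0.452 and 0.477 CPM on day 12. In both, day 9 replicate 3 was the lowest day 9 library. Their log2 changes were -4.19 ± 0.50 and -5.10 ± 0.74 (edgeR adjusted p = 5.34e-06 and 7.53e-05). EXLA2, an expansin-like protein, changed by -2.45 ± 0.46 and EXPA4 by -1.89 ± 0.34 (edgeR adjusted p = 0.00115 and 0.000555).

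All 13 tested members of the cell cycle list had negative changes, with a median of -1.91, and 1 was called, beside 5.56% of all loci lower, against 4 by DESeq2, by limma and without day 9 replicate 3. That member, TSO2, the small subunit of ribonucleotide reductase, had 39.4, 9.8 and 3.69 CPM on day 9 and 2.82, 1.21 and 0.953 CPM on day 12. The day 9 libraries spread widely, and the call (log2 change -3.42 ± 0.79, edgeR adjusted p = 0.00758) was lost without day 9 replicate 1 (-2.09) or day 12 replicate 3 (-3.15). MCM2, a helicase subunit of DNA replication, stood at 4.82, 3.76 and 0.962 CPM on day 9 and 0.188, 1.51 and 0.636 CPM on day 12.

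Of 41 GDSL-type lipases, 18 fell and none rose at midday, beside 5.56% of all loci lower, and 11 fell at midnight, beside 4.58%. AT3G16370 of this family had 56.8, 44.6 and 48.9 CPM on day 9 and 3.39, 7.98 and 6.2 CPM on day 12 (log2 change -3.07 ± 0.24, edgeR adjusted p = 7.47e-09), with a midnight change of -1.95 (edgeR adjusted p = 1.45e-05). By contrast LTL1 (AT3G04290), at 3.79, 56.8 and 2.89 CPM on day 9 and 0.94, 0.603 and 0.953 CPM on day 12, rested on day 9 replicate 2: the change was -4.68 ± 1.04 (edgeR adjusted p = 0.00547) and -1.99, not called, without that library. The lipase AT5G33370 (-4.55 ± 0.97, edgeR adjusted p = 0.00399) and the gibberellin-regulated AT3G10185 (-4.24 ± 1.04, edgeR adjusted p = 0.0117) showed the same library and were at -1.72 and -2.52, not called, without it. AT3G10185 also lost its call without day 12 replicate 1 (-4.12) or 3 (-4.17).

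All 6 tested family 96 cytochromes P450, which hydroxylate wax alkanes in the case of MAH1, fell, beside 5.56% of all loci, with a median of -2.98 (-4.90 without day 12 replicate 2). AT2G23180 had 48.2, 16.8 and 8.5 CPM on day 9 and 1.32, 4.97 and 1.75 CPM on day 12 (log2 change -3.14 ± 0.49, edgeR adjusted p = 0.000189). Its day 9 values run from high to low over a wide range, and the family, whose members can share reads, had no calls in a fit to the 6 midday libraries alone, 1 when 5 CPM in 3 libraries was required, and 4 to 6 when a library was left out. Loci that the 5 CPM filter left untested, such as MAH1, count there as not called. LACS1, an acyl-CoA synthetase of wax and cutin synthesis, had 134, 105 and 111 CPM on day 9 and 62.2, 58.5 and 58.9 CPM on day 12 (log2 change -0.97 ± 0.23, edgeR adjusted p = 0.00803), and LACS1 and MAH1 were the 2 called of 18 wax and cuticle loci, beside 5.56% of all loci lower, against 4 by DESeq2 and without day 9 replicate 3. MAH1 changed by -2.29 ± 0.69 (edgeR adjusted p = 0.0361) and lost its call without day 9 replicate 1 (-1.42) or day 12 replicate 1 (-1.79) or 3 (-1.89), and stood at -4.60 without day 12 replicate 2. Of 17 lipid-transfer proteins 7 fell, and 4 fell without day 9 replicate 2 or day 12 replicate 1 or 3.

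Germins, secreted proteins of the wall, were also lower. Of 9 germins and germin-like loci tested, 5 fell, beside 5.56% of all loci, with a median of -3.26. Germin 3 (AT5G20630) had 29.1, 80.3 and 24.2 CPM on day 9 and 2.07, 1.96 and 2.54 CPM on day 12. Both days were far below the means of 3240 CPM on day 0 and 2824 CPM on day 4, and re-watered plants were back at 1414 CPM. Germin 3 changed by -4.34 ± 0.75 on the log2 scale (edgeR adjusted p = 0.000577). The peroxidase AT4G21960 had a like course, at 139, 675 and 147 CPM on day 9 and 12, 6.33 and 16 CPM on day 12 (log2 change -4.82 ± 0.47, edgeR adjusted p = 3.06e-07), with 1996 CPM on day 0 and 1483 CPM after re-watering. Germin-like 1 (AT1G72610) went from 9.47, 33.6 and 11.7 CPM to 0.752, 1.05 and 1.27 CPM (log2 change -4.13 ± 0.87, edgeR adjusted p = 0.00373).

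**Figure D4:**
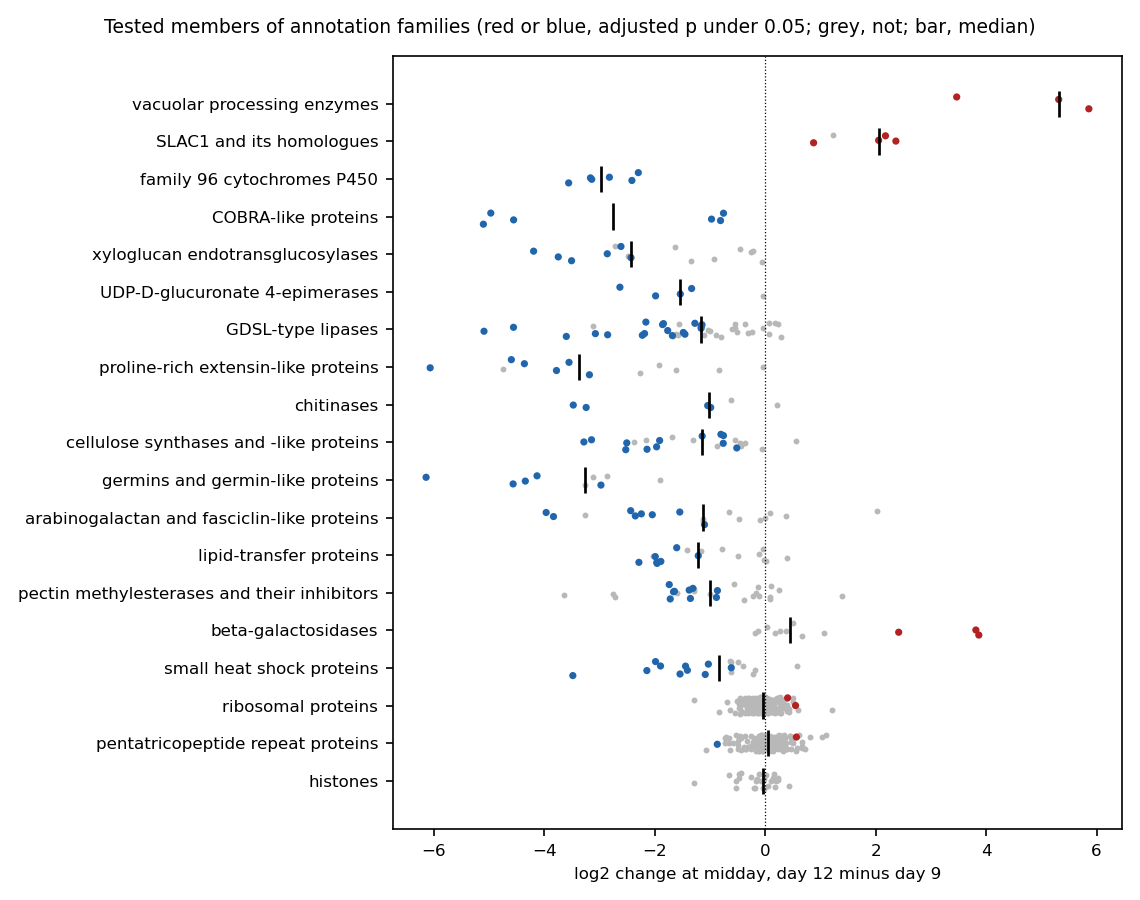
Log2 change at midday of every tested member of 19 annotation families; red and blue points passed an adjusted p of 0.05, grey points did not, and black bars are medians. Vacuolar processing enzymes and SLAC1 homologues lie to the right, wall, lipase and germin families to the left, and ribosomal proteins, pentatricopeptide repeat proteins and histones around 0.

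The regulators CBF2 and WRKY40 and the locus AT4G29780 fell. CBF2 (AT4G25470), a cold response factor, had 31.7, 26.2 and 10.4 CPM on day 9 and 0, 0.301 and 1.11 CPM on day 12. It was nearly absent at the other midday stages, with means of 0.223 CPM on day 0, 0.22 CPM on day 4 and 0 CPM after re-watering. CBF2 changed by -5.49 ± 0.57 on the log2 scale (edgeR adjusted p = 1.23e-06). AT4G29780, a locus with no description in the table, had 91.1, 29.3 and 4.17 CPM on day 9 and 0.752, 2.11 and 1.27 CPM on day 12 (log2 change -4.85 ± 0.76, edgeR adjusted p = 0.000251). WRKY40, a defence regulator, was low and changed by -3.42 ± 0.71 (edgeR adjusted p = 0.00258). It was the one called of the 9 tested on the list of stress NAC, WRKY and DREB factors, beside 5.56% of all loci lower. That list does not hold CBF2, itself a DREB factor. In all 3 loci day 9 replicate 1 was highest and replicate 3 lowest.

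Of 6 chitinases tested, 4 fell, beside 5.56% of all loci, and 2 fell in the fit to the 6 midday libraries alone or without day 9 replicate 1. The basic chitinase AT3G12500, which cuts fungal walls, had 11365, 2079 and 2360 CPM on day 9 and 322, 429 and 674 CPM on day 12. Day 9 replicate 1 stood far above the others. AT3G12500 changed by -3.47 ± 0.78 on the log2 scale (edgeR adjusted p = 0.00598), and -2.22, not called, without that library. A second chitinase, AT1G02360, changed by -3.24 ± 0.77 (edgeR adjusted p = 0.00956) and was not called without day 9 replicate 1 (-2.11) or day 12 replicate 1 (-3.17). The hydroxyproline-rich AT5G19800 had 583, 73.1 and 130 CPM on day 9 and 13.2, 15.1 and 19.1 CPM on day 12 (log2 change -4.05 ± 0.75, edgeR adjusted p = 0.00124), a change of -2.68 without day 9 replicate 1. The 4 tested defence markers (LOX2, PAD3, AOS and JAZ1) had no call, beside 8.40% of all loci called in either direction. They summed with the list's other members to 2270 to 2473 CPM on day 9 and 2104 to 2730 CPM on day 12, while PDF1.2 was at 0 counts and VSP2 at 2.

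Heat shock genes fell in part. Of 22 on the list 9 fell, and of 18 small heat shock proteins 10 fell, beside 5.56% of all loci. The list itself holds small heat shock proteins such as HSP22, so these counts share loci. The list's median was only -0.13 (-0.36 to -0.08 when a library was left out). Without day 9 replicate 1, 4 of the list fell and 2 rose, and 5 small heat shock proteins fell. The fit to the 6 midday libraries called 4 of the list lower, and 6 small heat shock proteins fell without day 12 replicate 1. HSP22 had 29.5, 10.9 and 12.2 CPM on day 9 and 1.88, 0.904 and 1.91 CPM on day 12 (log2 change -3.48 ± 0.50, edgeR adjusted p = 5.89e-05). HSP101, a disaggregase, had 32, 18 and 14.4 CPM on day 9 and 5.83, 9.49 and 9.53 CPM on day 12 (log2 change -1.35 ± 0.25, edgeR adjusted p = 0.000677). Day 9 replicate 1 was the highest library in both, and the days did not overlap. HSP90.1 was level, with 203, 237 and 183 CPM on day 9 and 219, 208 and 244 CPM on day 12. APX1, a cytosolic ascorbate peroxidase, was the one called of 18 antioxidant loci, near the 5.56% of all loci that were lower, against 3 by DESeq2 and 5 in the fit to the 6 midday libraries (-0.61 ± 0.19, edgeR adjusted p = 0.0379), and its call was lost without day 9 replicate 1 (-0.50) or 2 (-0.62) or day 12 replicate 1 (-0.61), 2 (-0.56) or 3 (-0.66).

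Part of the flavonoid and phenylpropanoid list fell. Of 13 tested, 4 fell, beside 5.56% of all loci, and 2 fell without day 9 replicate 1 or 3 or day 12 replicate 1 or 3. CHI, chalcone isomerase, had 11.9, 14 and 18.3 CPM on day 9 and 1.88, 8.14 and 4.45 CPM on day 12 (log2 change -1.57 ± 0.30, edgeR adjusted p = 0.00111), with a midnight change of -1.5 (edgeR adjusted p = 0.00101). C4H, the second enzyme of the pathway, changed by -1.03 ± 0.24 (edgeR adjusted p = 0.00701). PAL1, the first, changed by -1.12 ± 0.31 (edgeR adjusted p = 0.0225) and lost its call without day 9 replicate 1 (-1.11) or 3 (-1.0) or day 12 replicate 1 (-0.89) or 3 (-0.87), and stood at -1.77 without day 12 replicate 2. CHS changed by -2.35 ± 0.71 (edgeR adjusted p = 0.0408) and lost its call without any 1 of the 6 libraries, at -2.45, -2.30 and -2.28 without day 9 replicates 1, 2 and 3 and at -2.09, -2.69 and -2.33 without day 12 replicates 1, 2 and 3.

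The midday and midnight calls from day 9 to day 12 overlapped in part. At midnight, 1146 loci (8.16%) were called, 502 higher (3.57%) and 644 lower (4.58%). The same direction was called at both times for 174 loci, 70 higher and 104 lower, which is 14.7% of the midday calls and 15.2% of the midnight calls, and opposite directions for 17. By direction, the shared loci were 17.5% of the higher and 13.3% of the lower midday calls, where midnight called 3.57% and 4.58% of all loci, and 13.9% and 16.1% of the midnight calls. A test of the midday change minus the midnight change called 329 loci (2.34%), 123 with the midday change the more positive (0.875%) and 206 with it the more negative (1.47%), and 201 of them among the midday calls (17.0% of those calls), so for the other midday calls a difference from midnight was not shown. Of the 39 carbon cycle loci, 1 rose and 6 fell at midnight.

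AT5G05960, annotated as a lipid-transfer type protein, and DPE1 had the smallest adjusted p of this difference. At midday it had 177, 58.3 and 41.8 CPM on day 9 and 26.7, 17 and 27.5 CPM on day 12 (log2 change -1.96 ± 0.38, edgeR adjusted p = 0.00172), while its midnight mean went from 14.9 to 95.1 CPM (log2 change 2.67, edgeR adjusted p = 0.000168). The midday change was -1.08 without day 9 replicate 1. It thus fell by day and rose by night, with a difference of -4.63 ± 0.54 (edgeR adjusted p = 6.83e-05). BGLU43 (AT3G18070), a beta-glucosidase, had 72, 50.7 and 41.7 CPM on day 9 and 9.4, 9.04 and 8.9 CPM on day 12 at midday (log2 change -2.59 ± 0.24, edgeR adjusted p = 8.81e-08), against midnight means of 16.8 and 14.2 CPM (difference -2.35 ± 0.33, edgeR adjusted p = 0.000259). CSLC12 (AT4G07960), a xyloglucan backbone synthase homologue, fell at midday (-3.14 ± 0.38, edgeR adjusted p = 5.67e-06) with a difference of -3.44 ± 0.51 (edgeR adjusted p = 0.000632).

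AT1G67480, a kelch-repeat protein, was not called at midday (-0.57 ± 0.18, edgeR adjusted p = 0.0509) and rose at midnight (1.54, edgeR adjusted p = 3.36e-05). Its midday change was called lower by DESeq2 (adjusted p = 0.02), in the edgeR fit to the 6 midday libraries (adjusted p = 0.0137), under RLE or upper quartile scaling (edgeR adjusted p = 0.0344 and 0.0349) and when 5 CPM in 3 libraries was required (edgeR adjusted p = 0.0448). AT4G05160, an AMP-dependent synthetase, was at 0.25 ± 0.10 at midday (edgeR adjusted p = 0.13) and fell at midnight (-0.84, edgeR adjusted p = 1.45e-05). AT3G47550, a zinc finger protein, fell at midday (-0.59 ± 0.15, edgeR adjusted p = 0.0113; -0.48, not called, without day 9 replicate 2) and rose at midnight (0.75, edgeR adjusted p = 0.0026). AT1G69420, a DHHC-type zinc finger protein, fell at midday (-1.43 ± 0.20, edgeR adjusted p = 4.35e-05) and was not called at midnight (0.39, edgeR adjusted p = 0.172).

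In a fit to the 6 midday libraries alone, instead of all 30, these loci described above were not called: AT4G29780, AT3G04290, AT5G33370, AT3G10185, AT5G19800, AT3G52840, AT4G26140, AT3G13750, AT5G08250, pMDH2, LSF1, SS4, CYP707A1, HAI1, XERO1, P5CDH, RVE6, NIA1, NIA2, MCCA, EXLA2, TSO2, MAH1, PAL1, SLAC1, AT3G12500, AT1G02360, AT2G23180 and AT5G05960. Nor were AT4G08870, AT3G23730, AT1G09090, HSP17.6II and COBRA (AT5G60920), whose midday and midnight changes differed in the test across all 30 libraries. XERO1 and MAH1 were not called by DESeq2, and CHS was not called when no filter on low counts was applied.

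**Figure D5:**
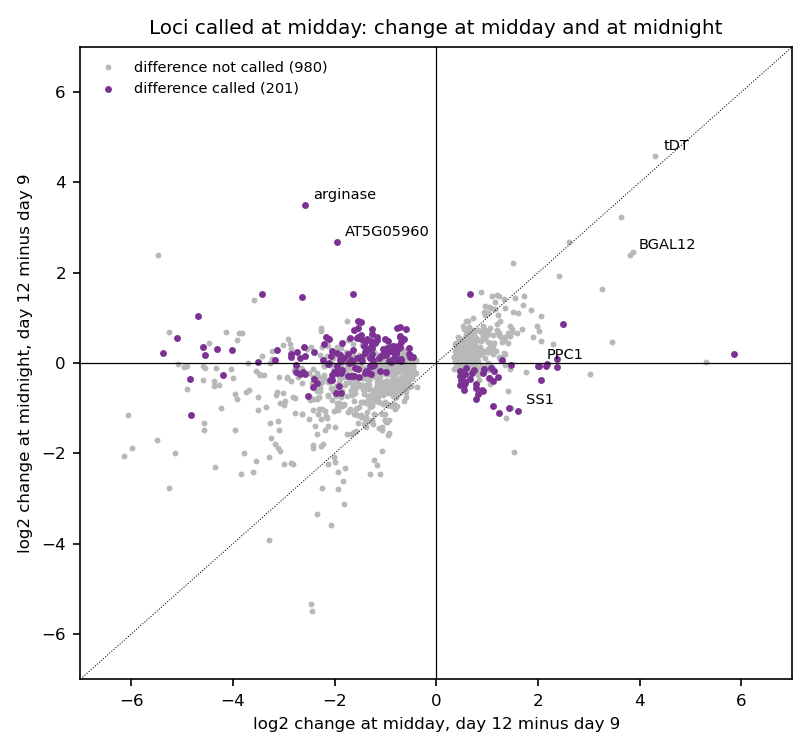
Each point is one of the 1181 loci called at midday, with its log2 change from day 9 to day 12 at midday (horizontal) and at midnight (vertical); purple marks the 201 loci whose 2 changes differed at an adjusted p of 0.05, and the dotted line marks equal change. tDT, at 4.59 at midnight, lies near the dotted line, PPC1 on the horizontal axis, SS1 below it, and AT5G05960 in the upper left.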

How the data were processed

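Leaf polyA RNA from 10 groups of 3 single-end libraries was prepared with TruSeq, multiplexed at 12 libraries per lane and read at 150 bp on a HiSeq 2000, per the labels' protocols. The file headers describe 3 biological replicates per group; if these were not separate plants, p-values measure only the spread between samples. CASAVA 1.8.2 and DESeq2 are named in the submitters' processing notes. Per the file headers, reads were aligned by the authors with BLAT in protein space to a minimal TAIR10 reference, keeping the best hit per read, and counted per Arabidopsis locus; these deposited raw counts were tested here. The deposited RPM per library, rounded to whole numbers by the authors and treated here as a score, served only to check the counts. Contig levels are the authors' deposited mean RPM per group, with no spread between replicates; the mapping tool used for contigs is not given in the sources used here.

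The fit used R 4.3.3 and edgeR 4.0.16 (TMM scaling, filterByExpr, glmQLFit, glmQLFTest) on all 30 single-end libraries and 10 groups. Of 21869 loci, 16766 had a count and 14052 were tested, with 20 residual degrees of freedom and a biological coefficient of variation of 0.173. Contrasts were day 12 minus day 9 at midday, the same at midnight, and their difference, called at a Benjamini-Hochberg adjusted p under 0.05. The SE of a log2 change is its size divided by the square root of F. The depth floor is 3 counts and covers counting error only. The calculation was tested on simulated data. An exact permutation test of 3 against 3 libraries cannot go below p = 0.10, so none is given. Limma 3.58.1 (prior count 2), DESeq2 1.42.0, other scalings, filters (none, or 5 CPM in 3 libraries), a replicate block, a fit to the compared groups and leaving out each library were alternatives.

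Loci and lists were chosen with earlier results of these data known. Named were the 12 largest increases and decreases among called loci with separate groups and a mean of at least 10 CPM on the higher day, per list the 4 called loci with the smallest adjusted p (all called ones of the carbon cycle list), up to 3 best expressed uncalled loci per list (all of the carbon cycle list), and the 8 loci with the smallest adjusted p of the midday minus midnight difference. A further 25 loci, and the annotation families, were chosen after their values were seen. Not all loci that the rule selects are described. Paralogs can share reads, and counts per locus are not levels of one Talinum gene. No sequences are printed. The 6 paired-end libraries were not analysed here.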

Additional observations from a re-analysis of the deposited data

Results flagged for a closer look

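These loci, among those described above or chosen with them, are listed because the midday change from day 9 to day 12 differed from the midnight change in edgeR's quasi-likelihood test of the difference (Benjamini-Hochberg adjusted p under 0.05 over all loci tested), each value being the log2 midday change minus the log2 midnight change. The midday change was the more positive one for 15 loci, and the difference was 5.67 for delta-VPE, 2.67 for SS1, 2.45 for SLAH2, 2.42 for SLAH1, 2.33 for PPH, 2.28 for AT5G08250, 2.23 for AT5G01880, 2.19 for SLAH3, 2.1 for PPC2, 2.07 for PPC1, 1.71 for DPE1, 1.63 for AT5G23870, 1.53 for COR47, 1.26 for LSF1 and 1.1 for AT4G05160.

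The midday change was the more negative one for 34 loci. The difference was -6.08 for the arginase locus AT4G08870, -5.73 for AT3G04290, -5.66 for AT3G16860, -4.96 for WRKY40, -4.73 for AT5G33370, -4.63 for AT5G05960, -4.49 for AT4G29780, -4.30 for AT1G24170, -3.93 for AT1G65310, -3.67 for AT4G21960, -3.44 for AT4G07960, -3.05 for AT3G23730, -2.63 for TIP1;3, -2.43 for AT4G30440, -2.35 for AT3G18070, -2.11 for AT1G67480 and -2.1 for TIP1;1. It was smaller in size for the rest, at -2.07 for EXPA4, -1.96 for HSP17.6II, -1.94 for CYP707A1, -1.81 for AT1G69420, -1.80 for AT5G22740, -1.73 for AT2G44290, -1.67 for AT4G12730, -1.67 for PIP2;2, -1.56 for the NADPH oxidase locus AT1G09090, -1.47 for BAM2, -1.40 for AT1G02000, -1.34 for AT3G47550, -1.32 for AT3G23820, -1.13 for COBRA (AT5G60920), -1.03 for COBRA-like 1 (AT3G02210), -0.84 for AT5G09870 and -0.66 for AlaAT1.

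Without each of the 12 libraries of these 4 groups in turn, the difference stayed called for 31 of the 49 loci and was lost at least once for 18. The number of libraries whose omission ended the call was 11 for AT4G29780, 10 each for AT3G16860 and HSP17.6II, 9 each for AT5G23870 and COR47, 8 for AT5G33370, 7 each for LSF1 and AT5G09870, 5 each for AT3G04290, AT1G65310 and COBRA, 4 for AT5G22740, 3 each for TIP1;3 and AlaAT1, 2 each for TIP1;1, AT5G08250 and AT4G12730 and 1 for AT1G24170. Without day 9 midday replicate 2, the difference was -3.04 for AT3G04290 and -1.90 for AT5G33370, neither called. A fit to the compared groups alone did not call 12 of the 49, namely AT4G29780, AT4G21960, AT3G04290, AT5G33370, AT1G65310, AT1G24170, AT5G23870, AT5G08250, CYP707A1, HSP17.6II, AT3G23730 and AT4G08870. Limma did not call AT4G29780, AT5G33370, COR47 and HSP17.6II, RLE scaling did not call AT5G23870, and testing every locus with a count did not call AT4G29780 and AT5G33370.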

How the results depend on the processing

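Other scalings (RLE, upper quartile), other tools (DESeq2, limma), testing every locus with a count, requiring 5 CPM in 3 libraries, a fit to the compared groups and the replicate block kept the midday total within 1.5 times of 1181, with no call of opposite sign. The fit to the compared groups called 1310 loci but kept 811 of the 1181 calls (68.7%), whereas the others kept 90.5% to 96.1%. Scaling moved the share of higher loci from 33.9% to 25.9% at the lowest. At an adjusted p under 0.01, midday gave 509 loci (117 higher and 392 lower), midnight 324 (137 higher, 187 lower) and the midday minus midnight difference 105 (36 higher, 69 lower). For that difference DESeq2 called 561 loci, 377 of them lower, and the fit to the compared groups called 529, 276 of them higher. Leaving out one library gave 537 to 981 loci at midday (128 to 303 higher, 409 to 707 lower), 290 to 1357 at midnight (130 to 631 higher, 157 to 726 lower) and 166 to 371 for the difference (54 to 154 higher, 100 to 252 lower); the cause was not tested. Same-numbered libraries did not deviate together (r = 0.0423, -0.0195 and -0.161, against a mean of 0.023 for other pairs). These few values showed no pairing by number but cannot exclude it. With the replicate block, 1129 loci were called at midday, 1125 at midnight and 314 for the difference. PPT2 and MAH1 then lost their midday calls, and AT3G16860, AT4G29780, AT5G33370 and AT5G23870 the calls of their difference. Depth limits loci near 3 counts, such as tDT on day 9.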

Other observations

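Some abundant assembled contigs had no Arabidopsis match and so are absent from the locus table. The following were chosen after their values were seen, as the largest gains and losses at midday among unmatched contigs that reached 1000 RPM, and all values are means in the authors' deposited table, with no spread between replicates. Contig Tt58642 had 191 RPM on day 0, 4064 RPM on day 9 and 46.3 RPM on day 12 at midday, and 3.67 and 80.3 RPM at midnight of days 9 and 12. Contig Tt38015 had 3070 RPM on day 9 and 173 RPM on day 12 at midday. Contig Tt26996 was lower on day 12 at both times, with 7580 and 981 RPM at midday and 7425 and 781 RPM at midnight. Contig Tt22416 was nearly absent on day 0, at 4.67 RPM, and had 1540 RPM on day 9 and 5806 RPM on day 12 at midday. Contig Tt57515 had 548 RPM on day 9 and 1305 RPM on day 12 at midday, against 15 and 24 RPM at midnight. Contig Tt19107 had 1523 RPM on day 9 and 3108 RPM on day 12 at midday, but 1729 and 928 RPM at midnight.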
